A study of Homo sapiens with 6 samples.

Results

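The comparison described here sets RNA taken 9 h after induction of HOXA5 against RNA taken at 0 h, before induction, in Hs578T cells. It compares 4 of the 6 arrays of the series, the 0 h and 9 h arrays of experiment 1 and of experiment 2, chosen by time and experiment number in their titles. The fit behind each standard error and p-value took in all 6 arrays, the 6 h arrays for the spread and the experiment effect. On the 4 arrays alone the fit gave 0 calls. Of the 22283 probe sets on each array, 18360 were tested, and these name 10444 genes. Hs578T is an established human breast cancer line of basal, mesenchymal character, and the cells used here were a derivative that carries an inducible HOXA5 gene. All 6 arrays are of this derivative. The 0 h arrays are the same cells seeded on the day before induction, and the 9 h arrays are induced cells. Which agent induced the gene, its dose, and how many clones the line holds are not given in the sources used here. No uninduced array at 9 h was used here, so HOXA5, the inducing agent and time in culture cannot be told apart. By the labels the experiments are 2 batches of RNA with no further replication stated. The p-values given here therefore measure how much these arrays vary, which may be technical, and 2 arrays per time limit the precision of every value. HOXA5 itself was not analysed here, so the induction was not checked against its own level.

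HOXA5 is a homeobox transcription factor that binds AT-rich DNA, often together with PBX and MEIS partners. In breast cells it is known as a gene that is often silenced in tumours and as an activator of p53 expression and of caspase-dependent death. The question named by the series title is which genes HOXA5 acts on. Several of the genes below belong to programs that cells switch on within hours of a stimulus. Immediate-early genes such as EGR1 and the AP-1 factors are transcribed without new protein synthesis, often through serum response factor at CArG boxes or CREB at cyclic AMP response elements. NF-kB is a family of factors held in the cytoplasm by inhibitors such as NFKBIA, which NF-kB itself switches on. In the integrated stress response, phosphorylation of eIF2 raises translation of ATF4, which activates genes of amino acid supply and tRNA charging.

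The 9 h arrays held most markers of the labelled cell type. Of 9 markers of basal and mesenchymal breast lines, 8 lay above the floor on every 0 h and 9 h array, and their summed intensity was 16591 and 18012 at 0 h against 16382 and 17563 at 9 h in experiments 1 and 2. Of 8 luminal markers, EPCAM and KRT19 were at the floor on all 6 arrays, but 5 lay above the floor on every 0 h and 9 h array. The luminal list summed to 3820 and 1149 at 0 h against 2301 and 1270 at 9 h. The endothelial gene CDH5 was at the floor throughout, with its list of 5 genes at 95.3 and 95.8, then 90.5 and 97.9. Leukocyte markers, 4 of 5 with a probe set, summed to 145 and 107, then 96.8 and 106, and erythroid and hepatic markers, 3 of 4, to 138 and 102, then 74.2 and 106. No list was higher at 9 h in both experiments, and the mesenchymal and leukocyte sums were lower in both. In bulk RNA, fewer cells of a type and less RNA per cell cannot be told apart. Median brightness before scaling was 95.7 and 49.0 at 0 h against 48.7 and 42.3 at 9 h. Changes are therefore given relative to the whole array. Without scaling, all tested genes together shifted by a median of -0.58 (log2), which the unscaled list medians below include. Signs of RNA quality moved with time. The median of the 12 ribosomal RNA probe sets went from 1.32 to 3.49 times the array median in experiment 1 and from 0.199 to 0.521 times in experiment 2. The probe set for the 3′ end of 28S ribosomal RNA went from 2.04 to 28.1 and from 0.182 to 1.06 times. Signal at the 3′ end over that at the 5′ end of GAPDH went from 0.863 to 1.31 and from 0.975 to 1.12, and that of ACTB from 1.09 to 1.82 and from 1.04 to 1.06. These shifts go with every list below, and their part in the results was not tested.

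At 9 h, transcription factors of the immediate-early class, the NF-kB inhibitors NFKBIA and TNFAIP3, the cytokines CXCL8 and LIF, targets of ATF4 and regulators of splicing were higher than at 0 h, and few genes were lower past the threshold. With the experiments paired, limma called 60 probe sets higher (0.327%) and 6 lower (0.0327%) at an adjusted p of 0.05, 66 in all (0.359%). In terms of genes, each represented by its brightest probe set, 43 of 10444 rose (0.412%) and 4 fell (0.0383%). At these shares 0 calls is the usual outcome for most lists of the sizes below. A list with 0 calls is therefore not read as unchanged. The calls rest on the pairing and on all of the arrays. Without the experiment as a block limma called 0 probe sets, with a lowest adjusted p of 0.543, and 1360 probe sets had an unadjusted p under 0.05 against 2545 with the block. In the paired fit 1575 of the 10444 genes had an unadjusted p under 0.05, the base for the counts of that kind given below for lists with 0 calls. Leaving out any 1 of the 6 arrays, or using only the 4 arrays at 0 h and 9 h, also left 0 calls, so each gene named below as risen or fallen lost its call in those fits. The same held for a fit with no filter on low values, one without the intensity trend and one on unscaled values, each with 0 calls and with 2286, 2131 and 650 probe sets at an unadjusted p under 0.05. The lot line of the 6 h array of experiment 2 names experiment 1, against its title, and a block that followed the lot line also gave 0 calls. All 47 genes called moved the same way in both experiments. Groups did not overlap for 42 of the 43 that rose, with both 9 h values above both 0 h values, and for the 4 that fell. Over all tested genes both 9 h values lay above both 0 h values in 2001 (19.2%) and below both in 2021 (19.4%). Genes were called on these same arrays, so the lack of overlap noted for single genes below describes them and adds no support.

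Across all genes, 2927 (28%) were higher in both experiments and 3085 (29.5%) lower in both, with a median log2 change of -0.02. A change of at least 2-fold in both experiments was seen upward in 247 genes (2.36%) and downward in 113 (1.08%). In probe sets the counts were 393 (2.14%) and 226 (1.23%). The changes in experiment 1 and experiment 2 correlated at 0.333 across genes, which share their arrays and are not replicates. That correlation was 0.136 in the dimmest and 0.516 in the brightest of 5 equal groups of genes by level. The genes that rose were bright, with a median level of 8.98 on the log2 scale against 6.43 for all genes. In 27 of the 43 the change was larger in experiment 1.

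**Figure D1:**
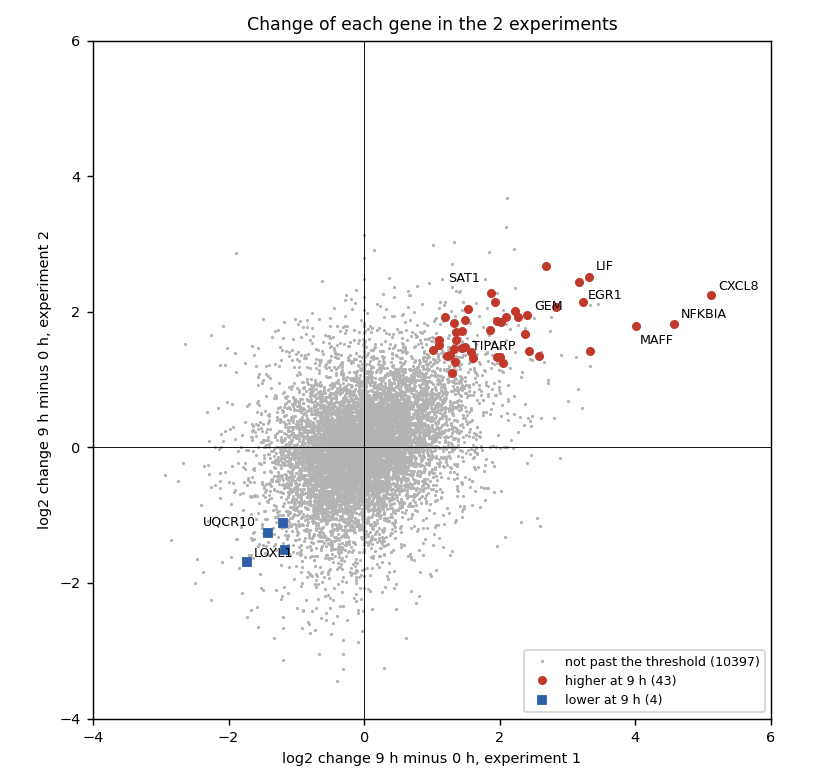
Change of each tested gene from 0 h to 9 h (log2) in experiment 1 (horizontal) and experiment 2 (vertical); each point is 1 gene by its brightest probe set, red circles are the 43 genes that rose, blue squares the 4 that fell, and grey points the genes not past the threshold. The called genes lie in the upper right and lower left, and CXCL8 and NFKBIA lie far to the right, with larger changes in experiment 1 than in experiment 2.

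The largest rises were in secreted factors, NF-kB inhibitors and basic leucine zipper factors. All levels below are log2 intensities, given for experiment 1 and then experiment 2. Apart from genes that the naming rule given under processing picks, those named below without passing were chosen after their values were seen. Square brackets after a change or a list median give its lowest and highest value with 1 array left out, for genes where that moved it more than 1.5 times. CXCL8, the chemokine also called interleukin-8, read 6.14 and 5.47 at 0 h against 11.26 and 7.72 at 9 h, a log2 change of 3.68 ± 0.55, adjusted p = 0.0355 (limma, standard error, 2 arrays per time). Its rise in experiment 1 was the larger, and the change was 2.41 when the experiment 1 array at 0 h was dropped and 4.97 when the experiment 2 array at 0 h was. NFKBIA, the inhibitor of NF-kB that ends its response, read 4.90 and 6.98 at 0 h against 9.47 and 8.81 at 9 h (3.20 ± 0.51, adjusted p = 0.0409), and its change was 2.13 when the experiment 1 array at 0 h was dropped and 4.25 when the experiment 2 array at 9 h was. For both genes the 9 h arrays lay above both 0 h arrays. LIF, a cytokine of the interleukin-6 family, read 4.81 and 6.26 at 0 h against 8.12 and 8.77 at 9 h (2.91 ± 0.30, adjusted p = 0.00890), with changes of like size in the experiments, 3.32 and 2.51. MAFF, a small MAF factor without an activation domain, read 6.16 and 8.60 at 0 h against 10.17 and 10.40 at 9 h (2.90 ± 0.41, adjusted p = 0.0298), with 2.02 when the experiment 1 array at 9 h was dropped and 3.80 when the experiment 2 array at 9 h was. The zinc finger factor EGR1 read 6.10 and 7.64 at 0 h against 9.26 and 10.08 at 9 h (2.80 ± 0.29, adjusted p = 0.00890). GADD45B, a stress sensor that binds upstream kinases of the p38 and JNK pathways, read 7.19 and 8.20 at 0 h against 10.41 and 10.34 at 9 h (2.68 ± 0.26, adjusted p = 0.00890), and all 4 of its probe sets were higher. In each of these 4 genes the lowest 9 h value exceeded the highest 0 h value.

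AADAC, arylacetamide deacetylase, was at the floor of 3.67 in the 0 h array of experiment 1 and at 4.94 in that of experiment 2, and read 6.35 and 7.61 at 9 h (2.68 ± 0.45, adjusted p = 0.0497). It was the dimmest of the genes that rose most. ATF3, a stress-inducible repressor and activator of the CREB family, read 6.09 and 7.81 at 0 h against 8.91 and 9.88 at 9 h (2.45 ± 0.26, adjusted p = 0.00890). TNFAIP3, a ubiquitin-editing enzyme that restrains NF-kB, read 6.71 and 8.08 at 0 h against 10.05 and 9.50 at 9 h (2.38 ± 0.39, adjusted p = 0.0452), with 1.49 when the experiment 1 array at 9 h was dropped and 3.29 when the experiment 2 array at 9 h was. The other probe set of TNFAIP3 had a change of 2.00, with 3.18 and 0.82 in the experiments, and was not called. GEM, a small GTPase that restrains calcium channels, read 7.16 and 9.23 at 0 h against 9.57 and 11.17 at 9 h (2.18 ± 0.21, adjusted p = 0.00890). NFIL3, a repressor at D-box elements, read 7.36 and 7.81 at 0 h against 9.58 and 9.83 at 9 h (2.12 ± 0.31, adjusted p = 0.0303). None of these 5 genes overlapped between 0 h and 9 h. CCNL1, a cyclin that partners CDK11 in splicing, read 7.57 and 8.25 at 0 h against 9.85 and 10.17 at 9 h (2.10 ± 0.22, adjusted p = 0.00890). SAT1, the acetyltransferase that starts polyamine breakdown, read 8.36 and 8.02 at 0 h against 10.23 and 10.29 at 9 h (2.08 ± 0.20, adjusted p = 0.00890), and all 3 of its probe sets passed. RSRC2, a protein with arginine and serine repeats, read 8.82 and 9.56 at 0 h against 10.74 and 11.71 at 9 h (2.04 ± 0.22, adjusted p = 0.0100), and CLK4, a kinase of SR splicing proteins, 6.76 and 6.997 at 0 h against 9.12 and 8.68 at 9 h (2.02 ± 0.29, adjusted p = 0.0298). All 4 stood higher on both 9 h arrays than on either 0 h array.

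**Figure D2:**
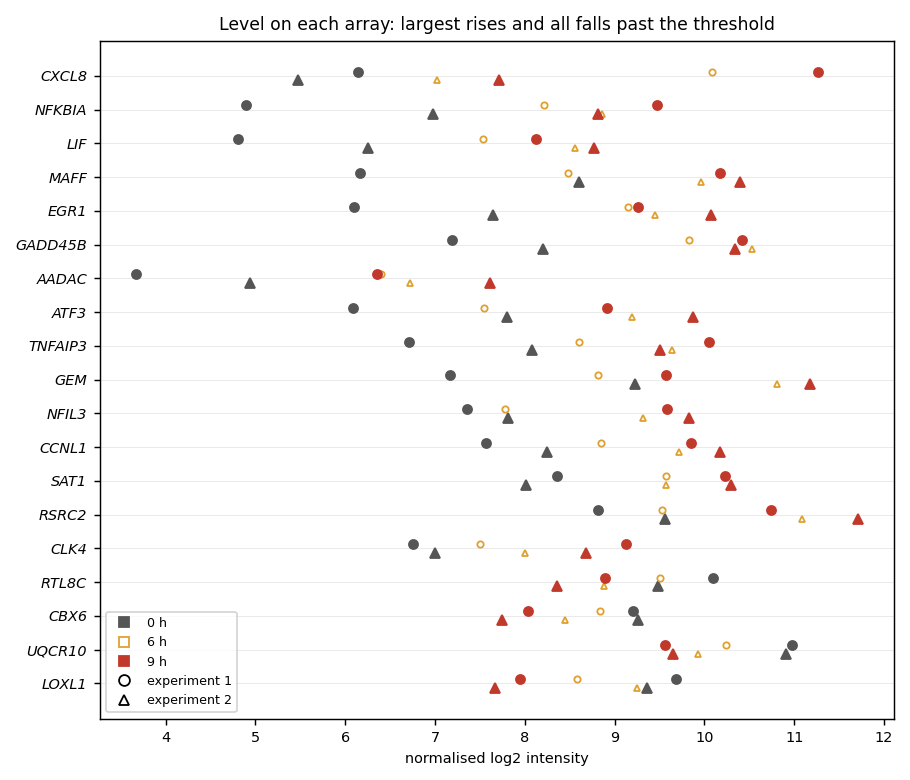
Log2 intensity of the 15 genes that rose most and the 4 that fell, 1 point per array, with filled grey for 0 h, open orange for 6 h and filled red for 9 h, circles for experiment 1 and triangles for experiment 2. For each gene shown, both 9 h points lie on the same side of both 0 h points; CXCL8 has the widest gap between its 9 h arrays, at 11.26 and 7.72.

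Immediate-early transcription factors were the group with the highest median. Of 14 tested AP-1 and CREB/ATF genes, 4 rose, 11 were higher in both experiments and 0 lower in both. The median log2 change was 1.22 against -0.02 for all tested genes, 1.33 and 1.02 in the experiments, and 0.99 to 1.45 with 1 array left out. Besides MAFF and ATF3, JUN, the main partner of FOS in AP-1, read 9.24 and 9.49 at 0 h against 10.68 and 11.21 at 9 h (1.58 ± 0.23, adjusted p = 0.0298), and all 4 of its probe sets were higher, 2 of them past the threshold. FOSL2, a FOS-related partner of JUN, read 6.997 and 7.19 at 0 h against 8.31 and 9.03 at 9 h (1.58 ± 0.27, adjusted p = 0.0497), while its other probe sets had changes of 0.56 and 0.19, both lower in experiment 1 and neither past the threshold. Among members that did not pass, named after their values were seen, FOS, at the floor on both 0 h arrays, read 3.67 and 3.67 at 0 h against 7.005 and 5.77 at 9 h, at least 6.58-fold higher (adjusted p = 0.0562). FOSL1 differed in direction between the experiments, with changes of -0.54 and 0.31. Of FOS, FOSB, FOSL1 and FOSL2, the one past the threshold was FOSL2.

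In the list of EGR, IER, KLF and other immediate-early genes, 3 of 24 rose, 17 were higher and 3 lower in both experiments, and the median was 0.91 [0.76 to 1.07] (0.93 and 0.80 in the experiments). KLF10, a repressor first found as a TGF-beta early gene, read 7.90 and 8.36 at 0 h against 10.48 and 9.71 at 9 h (1.97 ± 0.28, adjusted p = 0.0298). IER2, an immediate-early nuclear protein, read 9.87 and 10.32 at 0 h against 11.22 and 11.91 at 9 h (1.47 ± 0.18, adjusted p = 0.0144). EGR1 belongs to this list too. KLF6 was called by another probe set than its brightest, at 5.17 and 6.399 at 0 h against 7.35 and 8.02 at 9 h (1.90 ± 0.32, adjusted p = 0.0497), while its brightest one had a log2 change of 1.66 (adjusted p = 0.0553). The members lower in both experiments were EGR4, CCN1 and ZFP36L2, with log2 changes of -0.28, -0.46 [-0.76 to -0.15] and -0.63 [-1.14 to -0.10], none past the threshold.

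The promoters of genes that rose are shown for a known element of immediate-early genes: EGR1 and MAFF from the lists above, with CCNL1 of the splicing list and PPP1R15A of the ATF4 list, which hold the same element as MAFF. The sequences are from RefSeq on GRCh38.p14, the 250 bases before the transcription start, on the gene's strand and 5′ to 3′. EGR1 lies at chr5:138465229-138465478 on the plus strand, and its capitals mark 2 CArG boxes, which start 105 and 83 bases before the start site. MAFF at chr22:38201744-38201993 on the plus strand, CCNL1 at chr3:157160148-157160397 on the minus strand and PPP1R15A at chr19:48872171-48872420 on the plus strand each hold 1 full cyclic AMP response element (CRE), TGACGTCA, in capitals.
EGR1: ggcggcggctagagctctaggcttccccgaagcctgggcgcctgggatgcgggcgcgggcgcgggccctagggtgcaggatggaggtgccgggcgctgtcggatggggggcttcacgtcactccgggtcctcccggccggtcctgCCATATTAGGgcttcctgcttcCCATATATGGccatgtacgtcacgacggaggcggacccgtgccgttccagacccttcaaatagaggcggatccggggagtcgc
MAFF: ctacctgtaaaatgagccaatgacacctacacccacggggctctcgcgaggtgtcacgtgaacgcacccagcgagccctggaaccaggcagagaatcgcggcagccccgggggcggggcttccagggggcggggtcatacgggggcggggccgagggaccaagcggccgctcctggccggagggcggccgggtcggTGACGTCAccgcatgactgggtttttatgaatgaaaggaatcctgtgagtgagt
CCNL1: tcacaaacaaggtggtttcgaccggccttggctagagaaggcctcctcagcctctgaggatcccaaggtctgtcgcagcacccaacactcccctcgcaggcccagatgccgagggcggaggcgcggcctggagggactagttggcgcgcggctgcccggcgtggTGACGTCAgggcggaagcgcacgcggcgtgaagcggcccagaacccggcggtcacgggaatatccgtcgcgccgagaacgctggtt
PPP1R15A: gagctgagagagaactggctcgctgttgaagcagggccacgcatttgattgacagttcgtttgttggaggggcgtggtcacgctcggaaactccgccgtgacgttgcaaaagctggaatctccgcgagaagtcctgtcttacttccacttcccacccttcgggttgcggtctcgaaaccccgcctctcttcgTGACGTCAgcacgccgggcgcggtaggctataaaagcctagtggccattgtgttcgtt

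Motifs were counted on both strands in RefSeq promoter windows of 300 bases, 250 before to 50 after each start. Of the 43 genes that rose, 35 had a promoter in the table, with 53 windows. CRE was present in 5 of 22 windows (22.7%) of the tested AP-1 and CREB/ATF list, against 2.65% of windows of all tested genes and 1.85% of all windows in the table. Among the genes that rose the share was 7.55%. CArG boxes were in 2 of 20 windows (10.0%) of the EGR, IER and KLF list, against 1.31% of tested genes and 3.77% of genes that rose. The AP-1 site TGANTCA was in 11.3% of windows of the genes that rose and in 5.92% for all tested genes. The homeobox core TAATTA, a common core of HOX binding sites, was in 1.89% of windows of the genes that rose, 1 window of RCAN1, in 2.80% of tested genes and in 4.84% of all windows. These shares describe letters in short windows and were not tested. The lists hold textbook targets of the factors, so their shares are not independent of that choice.

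Feedback on MAP kinases and the nuclear receptors held 0 called genes, where 0.412% of all tested genes rose and 0.0383% fell. Among 14 genes of MAP kinase feedback, the phosphatases and Sprouty proteins that switch ERK, p38 and JNK off again, 10 were higher and 3 lower in both experiments, 6 with an unadjusted p under 0.05, and a median of 0.52 [0.36 to 0.52] (-0.08 in unscaled values). DUSP8, a phosphatase of JNK and p38, had the largest change, 5.39 and 6.11 at 0 h against 7.16 and 7.68 at 9 h (1.67 ± 0.37, adjusted p = 0.0995). SPRY1 was at 6.79 and 5.60 at 0 h against 5.99 and 4.89 at 9 h, lower in both experiments (-0.75 [-1.38 to -0.11]). For 13 nuclear receptors the median was 0.27 (-0.25 unscaled, -0.13 to 0.38 with 1 array left out), and 5 were higher in both experiments, 3 with an unadjusted p under 0.05. The orphan receptor NR4A3 read 4.27 and 4.98 at 0 h against 6.74 and 5.45 at 9 h (1.47 ± 0.56 [0.69 to 2.26], adjusted p = 0.279).

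Genes of the NF-kB pathway were higher at 9 h in nearly every member. Of 18 subunits, inhibitors and feedback genes, 17 were higher in both experiments, 0 were lower in both, and 2 rose, NFKBIA and TNFAIP3. Its median was 0.98, 0.96 and 0.84 in the experiments and 0.74 to 1.22 with 1 array left out. TNIP1 was the member that was not higher in both, with changes of -0.22 and 0.03. Among the subunits, REL read 4.62 and 4.002 at 0 h against 6.43 and 5.39 at 9 h (1.60 ± 0.53, adjusted p = 0.227), RELB 5.47 and 7.18 at 0 h against 7.58 and 8.10 at 9 h (1.52 ± 0.34 [0.96 to 2.05], adjusted p = 0.103), and RELA, the main activating subunit, 8.53 and 9.16 at 0 h against 8.54 and 9.78 at 9 h (0.32 [0.04 to 0.59]). The subunits of the alternative and REL branches thus read larger changes than RELA, a difference that was not tested. Promoters of both called inhibitors carry kappa B sites in capitals: TNFAIP3 at chr6:137867009-137867258 on the plus strand has 2, which start 67 and 55 bases before the start site, and NFKBIA at chr14:35404750-35404999 on the minus strand has 1 at 81 bases in this search. Of the 27 windows of the list, 13 (48.1%) held a kappa B site, against 13.2% of windows of all tested genes, 11.3% of all windows and 13.2% of windows of the genes that rose.
TNFAIP3: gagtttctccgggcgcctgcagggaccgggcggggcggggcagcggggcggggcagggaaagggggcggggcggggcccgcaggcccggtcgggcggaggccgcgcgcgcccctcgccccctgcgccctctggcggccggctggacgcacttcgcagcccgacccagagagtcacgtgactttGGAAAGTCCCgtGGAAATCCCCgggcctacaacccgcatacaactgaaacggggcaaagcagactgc
NFKBIA: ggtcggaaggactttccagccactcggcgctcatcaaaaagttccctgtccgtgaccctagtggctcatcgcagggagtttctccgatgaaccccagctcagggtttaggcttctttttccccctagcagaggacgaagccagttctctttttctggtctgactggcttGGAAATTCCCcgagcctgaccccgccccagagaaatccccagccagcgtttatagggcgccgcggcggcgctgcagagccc

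Among the 25 cytokine genes tested, 2 rose, CXCL8 and LIF; 9 were higher and 4 lower in both experiments, and the median was 0.32 [0.12 to 0.60] (-0.12 unscaled). PTGS2, the inducible cyclooxygenase, read 3.67 and 4.90 at 0 h against 6.42 and 6.82 at 9 h (2.33 ± 0.46, adjusted p = 0.0776), and CCL2, a monocyte chemokine, 8.15 and 3.67 at 0 h against 10.25 and 5.49 at 9 h (1.96 ± 0.52 [1.31 to 2.64], adjusted p = 0.151). These did not pass. CXCL2 and CXCL3, neutrophil chemokines close to CXCL8, had changes of 3.33 and 1.20 and 3.21 and 0.59 in experiments 1 and 2, those of CXCL3 from the floor on both 0 h arrays and so lower bounds, and CXCL1 of 2.89 and -0.15. IL6 had changes of 2.40 and -0.23. So in this family experiment 1 gave the larger values, and CXCL1 and IL6 did not keep their direction. The CXCL family shares similar sequence, and values of its members are uncertain where probe sets read a copy. The promoter of CXCL8, at chr4:73740319-73740568 on the plus strand, is shown for its AP-1 site (TGANTCA), in capitals 137 bases before the start.
CXCL8: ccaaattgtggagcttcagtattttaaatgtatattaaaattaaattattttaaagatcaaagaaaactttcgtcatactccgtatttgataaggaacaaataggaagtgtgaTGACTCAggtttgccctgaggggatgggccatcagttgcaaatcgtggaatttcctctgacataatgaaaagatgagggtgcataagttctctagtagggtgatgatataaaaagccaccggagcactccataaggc

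ATF4 targets, with genes of amino acid supply and tRNA charging, held the most called genes of any list by count, though not by share. Over all tested genes 0.412% rose, and in the smaller AP-1 and CREB/ATF list 4 of 14 did. Of 40 tested, 5 rose and 0 fell, 29 were higher and 2 lower in both experiments, and the median was 0.76. Here experiment 2 gave the larger median, 0.47 and 1.04 in the experiments, and leaving out 1 array gave 0.43 to 1.11. CHAC1, an enzyme that degrades glutathione, read 6.61 and 6.17 at 0 h against 8.58 and 8.04 at 9 h (1.92 ± 0.30, adjusted p = 0.0384). PPP1R15A, the phosphatase subunit that reverses eIF2 phosphorylation, read 6.99 and 9.52 at 0 h against 8.95 and 10.86 at 9 h (1.65 ± 0.22, adjusted p = 0.0246), though its other probe set had a change of 1.15 and was not called. It is the gene that rose whose groups overlapped: its 9 h value in experiment 1 lay below its 0 h value in experiment 2, while both experiments rose. STC2, a secreted stanniocalcin, read 7.83 and 8.85 at 0 h against 9.88 and 10.10 at 9 h (1.65 ± 0.23, adjusted p = 0.0298), though its other probe set had a change of 0.12, and CARS1, a cysteinyl-tRNA synthetase, 10.38 and 10.06 at 0 h against 11.57 and 11.98 at 9 h (1.55 ± 0.25, adjusted p = 0.0409). CEBPG, a partner of ATF4, read 8.14 and 8.29 at 0 h against 9.50 and 9.99 at 9 h (1.53 ± 0.21, adjusted p = 0.0274). SLC7A11, the cystine transporter, was called by another probe set, 7.34 and 5.81 at 0 h against 9.04 and 8.13 at 9 h (2.01 ± 0.29, adjusted p = 0.0298), while its brightest had a change of 1.37 (adjusted p = 0.0652).

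Members of the list that did not pass, named after their values were seen, included both high and low ones. CTH, an enzyme of cysteine synthesis, read 5.18 and 3.92 at 0 h against 7.39 and 6.84 at 9 h (2.56 ± 0.53, adjusted p = 0.0867), ASNS, asparagine synthetase, 8.30 and 7.58 at 0 h against 9.44 and 9.50 at 9 h (1.53 ± 0.28, adjusted p = 0.0652), and ATF4 itself 10.34 and 10.62 at 0 h against 11.02 and 11.78 at 9 h (0.92 ± 0.24 [0.53 to 1.36], adjusted p = 0.152). DDIT3, the CHOP factor, read 7.32 and 8.13 at 0 h against 8.32 and 9.70 at 9 h (1.28 ± 0.24, adjusted p = 0.0652). TRIB3, another known ATF4 target, had changes of -0.12 and 0.34. The members lower in both experiments were the glycine transporter SLC6A9 (-0.61 [-0.92 to -0.30]) and the leucyl-tRNA synthetase LARS1 (-0.25 [-0.55 to 0.05]). A C/EBP-ATF response element (CARE, TGATGNAA) was in 11 of 50 windows (22.0%) of the list, against 2.35% for all tested genes, 3.62% of all windows and 7.55% of windows of the genes that rose. In the CHAC1 promoter, at chr15:40953221-40953470 on the plus strand, it lies on the opposite strand 209 bases before the start, in capitals.
CHAC1: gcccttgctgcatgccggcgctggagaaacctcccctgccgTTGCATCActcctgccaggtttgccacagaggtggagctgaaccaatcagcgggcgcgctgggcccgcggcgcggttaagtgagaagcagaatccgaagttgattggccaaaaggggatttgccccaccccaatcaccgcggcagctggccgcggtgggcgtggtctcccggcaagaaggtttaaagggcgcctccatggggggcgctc

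The list of endoplasmic reticulum chaperones and unfolded protein response genes had a median in the other direction. Of 24 tested, 0 rose and 0 fell, 9 with an unadjusted p under 0.05, 4 were higher and 11 lower in both experiments, and the median was -0.32 (-0.39 to -0.12 with 1 array left out). HSPA5, the main chaperone BiP, read 10.95 and 10.31 at 0 h against 10.20 and 9.46 at 9 h (-0.80 ± 0.18, adjusted p = 0.108). SDF2L1, one of its partners, read 9.34 and 8.31 at 0 h against 8.17 and 6.84 at 9 h (-1.32 ± 0.23, adjusted p = 0.0591), and PDIA4, a disulfide isomerase, 8.88 and 8.09 at 0 h against 8.24 and 6.24 at 9 h (-1.25 ± 0.38 [-1.998 to -0.51], adjusted p = 0.197). Both 9 h values of HSPA5, SDF2L1 and PDIA4 lay lower within their experiment, with none past the threshold. They were named after their values were seen. The sensor ATF6 had the largest change of the list, 6.31 and 4.65 at 0 h against 7.33 and 7.64 at 9 h (2.005 ± 0.77, adjusted p = 0.287), with 0.46 when the experiment 2 array at 0 h was dropped and 3.59 when the experiment 1 array at 0 h was.

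**Figure D3:**
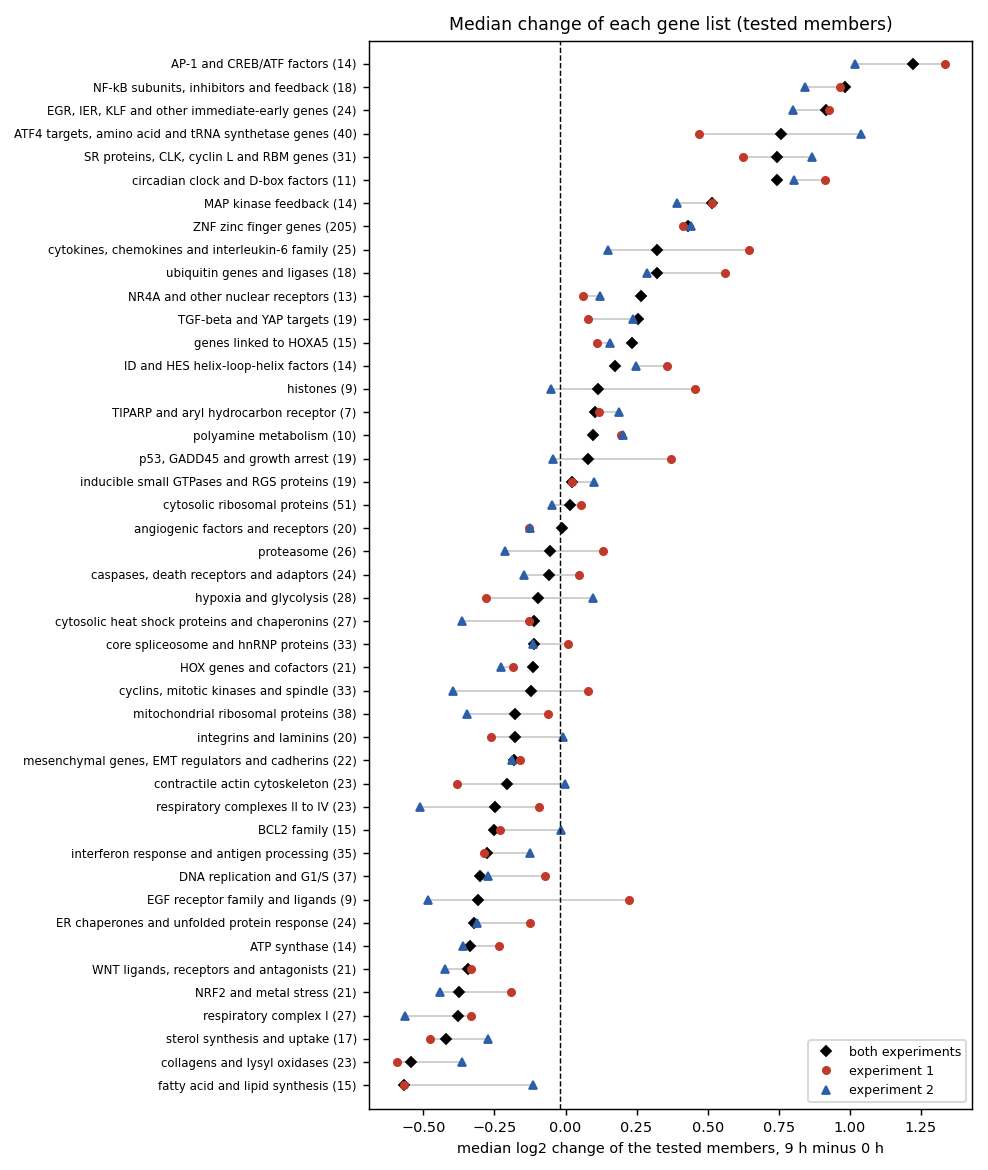
Median log2 change from 0 h to 9 h of the tested members of each gene list, with black diamonds for both experiments, red circles for experiment 1, blue triangles for experiment 2, the number of members in brackets and a dashed line at the median of all tested genes. AP-1 and CREB/ATF factors, NF-kB genes, immediate-early genes, ATF4 targets, splicing regulators and circadian genes lie between 0.74 and 1.22, and collagens and fatty acid synthesis lie lowest, at -0.54 and -0.57.

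Splicing regulators were higher at 9 h in most members, and core spliceosome genes were not. Of 31 SR proteins, CLK kinases, L-type cyclins and RBM genes, 4 rose, 24 were higher and 5 lower in both experiments, and the median was 0.74 [0.63 to 0.97], 0.62 and 0.87 in the experiments. CCNL1 and CLK4 are given above. RBM5, a splicing factor of apoptosis genes, read 7.64 and 8.54 at 0 h against 9.22 and 9.95 at 9 h (1.49 ± 0.21, adjusted p = 0.0274), with 2 of its 3 probe sets higher. RBM39, a U2AF-related splicing factor, read 9.52 and 9.99 at 0 h against 10.62 and 11.58 at 9 h (1.34 ± 0.20, adjusted p = 0.0355), and both of its probe sets passed. CLK1, the kinase most like CLK4, read 5.20 and 6.20 at 0 h against 7.42 and 7.605 at 9 h (1.82 ± 0.40, adjusted p = 0.0963), and SRSF6 9.16 and 9.68 at 0 h against 10.21 and 10.73 at 9 h (1.05 ± 0.21, adjusted p = 0.0776); neither passed. RBM14 was the lowest of the list, 7.46 and 8.01 at 0 h against 6.66 and 6.75 at 9 h (-1.03 [-1.51 to -0.55]). For 33 core spliceosome and hnRNP genes the median was -0.11 [-0.20 to 0.05], with 10 higher and 12 lower in both and 0 called, 7 with an unadjusted p under 0.05. SNRPD3, an Sm ring protein, read 10.61 and 10.26 at 0 h against 9.64 and 8.79 at 9 h (-1.22 ± 0.22, adjusted p = 0.0631), and SNRPF had changes of -0.79 and -1.34. SFPQ, a splicing factor outside these lists, was called by a probe set other than its brightest, 7.34 and 7.90 at 0 h against 9.09 and 9.85 at 9 h (1.86 ± 0.22, adjusted p = 0.0144), while its brightest one had a change of 0.43 (adjusted p = 0.361) and the other two 0.42 and -0.01.

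Zinc finger genes named ZNF, mostly repressors that recruit TRIM28, were the largest list. The arrays name 235 of them, and 205 were tested. Higher in both experiments were 117 and lower in both 18, with a median of 0.43 (0.41 and 0.44 in the experiments, 0.40 to 0.51 with 1 array left out, -0.11 unscaled), and 0 were called in either direction, 57 with an unadjusted p under 0.05. ZNF557 had the largest change of them, 4.99 and 3.67 at 0 h against 7.09 and 7.34 at 9 h (2.89 ± 0.55 [1.91 to 3.91], adjusted p = 0.0710).

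The remaining genes that rose act in several parts of RNA metabolism, chromatin and signalling; they are given here because they passed the test and lie in no list above. For RNA metabolism, TUT7, a terminal uridylyltransferase, had a log2 change of 1.78 ± 0.27, ZCCHC8, a subunit of the nuclear exosome targeting complex, 1.66 ± 0.25, and SREK1, a splicing regulator, 1.39 ± 0.19. THUMPD2, an RNA methyltransferase, had 1.93 ± 0.26, DNTTIP2, a nucleolar protein, 1.19 ± 0.20, and PNRC2, an mRNA decay and nuclear receptor cofactor, 1.23 ± 0.20. In chromatin and transcription, ING3, a subunit of the NuA4 acetyltransferase complex, had 1.93 ± 0.30, RYBP, a Polycomb subunit, 1.32 ± 0.21, TAF2, a subunit of TFIID, 1.29 ± 0.19, ADNP, a homeobox zinc finger protein, 1.30 ± 0.20, and TSC22D1, a leucine zipper protein, 1.45 ± 0.21. The other probe sets of RYBP had changes of 0.56 and 0.43, neither past the threshold, and the latter was lower in experiment 2. RCAN1, an inhibitor of calcineurin, had 1.49 ± 0.22, the ribosome-bound chaperone DNAJC2 1.46 ± 0.23, and RABGGTB, a subunit of the enzyme that prenylates Rab proteins, 1.31 ± 0.21. The other probe sets of RCAN1 had changes of 0.89 and 0.12, neither past the threshold, and the latter was lower in experiment 2. CROCCP2, a pseudogene whose probe set may read related copies, had 1.68 ± 0.23 and is uncertain. TIPARP, a mono-ADP-ribosyltransferase that restrains the aryl hydrocarbon receptor, read 8.85 and 8.79 at 0 h against 10.70 and 10.53 at 9 h (1.79 ± 0.19, adjusted p = 0.00890), and the aryl hydrocarbon receptor list of 7 had a median of 0.10 [-0.20 to 0.35] (-0.39 unscaled). Apart from SAT1 the 10 polyamine genes had 0 calls, and the spermidine synthase SRM read 9.56 and 9.50 at 0 h against 8.62 and 8.70 at 9 h (-0.88).

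Genes of growth arrest and cell death changed singly. In the p53 and GADD45 list, 2 of 19 rose, GADD45B and PMAIP1, 6 were higher and 4 lower in both experiments, and the median was 0.08 [-0.06 to 0.25] (-0.51 unscaled). PMAIP1, the BH3-only protein NOXA, read 8.23 and 8.97 at 0 h against 10.33 and 10.90 at 9 h (2.01 ± 0.19, adjusted p = 0.00890), and both of its probe sets passed. CDKN1A, the p21 inhibitor that p53 activates, read 6.71 and 7.39 at 0 h against 7.29 and 7.95 at 9 h (0.57 ± 0.30, adjusted p = 0.440), and BAX, a pore-forming p53 target, 5.47 and 5.31 at 0 h against 5.24 and 4.99 at 9 h (-0.27). Of 15 BCL2 family genes PMAIP1 alone rose by its brightest probe set, and 7 were lower in both. MCL1, the survival protein that NOXA binds, was called by 2 probe sets other than its brightest, the first at 5.46 and 7.09 at 0 h against 7.33 and 8.92 at 9 h (1.85 ± 0.29, adjusted p = 0.0409), while its brightest read 8.76 and 9.17 at 0 h against 10.42 and 10.24 at 9 h (1.36 ± 0.24, adjusted p = 0.0569). BCL2L1 read 7.85 and 7.12 at 0 h against 6.52 and 6.51 at 9 h (-0.97 ± 0.43 [-1.55 to -0.38], adjusted p = 0.352). Caspases, death receptors and adaptors had 0 calls among 24 genes, 2 with an unadjusted p under 0.05, 7 higher and 8 lower in both, and a median of -0.06 [-0.09 to 0.08]. The receptor TNFRSF10B was highest, 8.34 and 8.49 at 0 h against 9.53 and 9.32 at 9 h (1.01 ± 0.23, adjusted p = 0.0995). The median over its 3 probe sets was 0.49.

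Other lists had a higher median with 1 call or none. Circadian and D-box genes had a median of 0.74 [0.74 to 0.97] over 11 genes, with 6 higher and 2 lower in both, and NFIL3 as the call; the clock repressor CRY1 read 6.43 and 6.91 at 0 h against 7.397 and 8.17 at 9 h (1.11 ± 0.31, adjusted p = 0.169). For 18 ubiquitin genes the median was 0.32 [0.12 to 0.53] (-0.20 unscaled), and 12 were higher in both, with 0 calls and 8 with an unadjusted p under 0.05. PELI1, a ligase of the interleukin-1 pathway, read 6.38 and 7.06 at 0 h against 8.03 and 8.16 at 9 h (1.38 ± 0.30, adjusted p = 0.0928), and the lowest member was UBE2S, 10.46 and 11.02 at 0 h against 9.05 and 9.80 at 9 h (-1.31). TGF-beta and YAP targets had 0.26 [0.12 to 0.34] over 19 genes (-0.28 unscaled; 4 with an unadjusted p under 0.05), and TGFB2 read 7.53 and 6.398 at 0 h against 6.34 and 5.23 at 9 h (-1.18 ± 0.37, adjusted p = 0.205), with 3 of its 4 probe sets lower. ID and HES factors had 0.18 [0.10 to 0.35] over 14 (-0.35 unscaled; 4 with an unadjusted p under 0.05), with ID4, at the floor on both 0 h arrays, at 3.67 and 3.67 at 0 h against 4.69 and 4.91 at 9 h, at least 2.18-fold higher (adjusted p = 0.274). Small GTPases and RGS proteins lay close to all genes, with a median of 0.02 [-0.11 to 0.24] over 19 genes (-0.56 unscaled), and GEM alone of them rose.

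The 4 genes that fell were LOXL1, UQCR10, CBX6 and RTL8C. LOXL1, a lysyl oxidase that crosslinks elastin, read 9.68 and 9.36 at 0 h against 7.95 and 7.67 at 9 h (-1.72 ± 0.28, adjusted p = 0.0427). UQCR10, a small subunit of respiratory complex III, read 10.98 and 10.91 at 0 h against 9.56 and 9.65 at 9 h (-1.34 ± 0.19, adjusted p = 0.0298). CBX6, a Polycomb chromobox protein, read 9.20 and 9.26 at 0 h against 8.04 and 7.75 at 9 h (-1.34 ± 0.23, adjusted p = 0.0497), and RTL8C, a retrotransposon-derived gene, 10.09 and 9.48 at 0 h against 8.89 and 8.36 at 9 h (-1.16 ± 0.20, adjusted p = 0.0497). By their brightest probe sets all 4 were lower on both 9 h arrays than on either 0 h array, with changes of like size in both experiments. The other probe set of CBX6 had changes of -1.18 and -0.38 and was not called. By probe sets other than the brightest, EHD2, a protein of caveolae, was called lower (9.26 and 8.29 at 0 h against 6.74 and 6.81 at 9 h; -1.999 ± 0.30, adjusted p = 0.0356; its brightest had a change of -1.17 (adjusted p = 0.137)), as was PML, the nuclear body protein (6.37 and 6.73 at 0 h against 3.67 and 3.67 at 9 h, both 9 h arrays at the floor; adjusted p = 0.0441). The other 6 probe sets of PML were not called, with changes from -0.70 to 0.45, and its brightest had -1.11 and 0.30 in the experiments (adjusted p = 0.759).

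The matrix list around LOXL1 was lower in most members. Of 23 collagens and lysyl oxidases, 1 fell, 16 were lower and 1 higher in both experiments, and the median was -0.54 (-0.59 and -0.36 in the experiments, -0.55 to -0.40 with 1 array left out). SERPINH1, the collagen chaperone HSP47, read 8.95 and 8.65 at 0 h against 7.75 and 5.99 at 9 h (-1.93 ± 0.40 [-2.74 to -1.11], adjusted p = 0.0843). COL5A1 and COL5A2, the chains of type V collagen, read 8.65 and 8.05 at 0 h against 7.46 and 7.22 at 9 h (-1.01 ± 0.26, adjusted p = 0.145) and 9.84 and 7.50 at 0 h against 8.75 and 6.62 at 9 h (-0.99 ± 0.26, adjusted p = 0.147). COL1A1, the most abundant fibril chain, had changes of -0.37 and -0.29. Integrins and laminins had a median of -0.18 [-0.24 to 0.01] over 20 genes, mesenchymal and EMT genes -0.18 [-0.28 to -0.08] over 22, and the contractile cytoskeleton -0.21 [-0.36 to 0.01] over 23, each with 0 calls. Without the experiment 1 array at 0 h the integrin and contractile medians were both 0.01. Of these lists, 2, 7 and 7 members had an unadjusted p under 0.05. LAMB3 read 6.05 and 6.78 at 0 h against 6.29 and 7.93 at 9 h (0.70 ± 0.36 [0.24 to 1.14], adjusted p = 0.441), and MYL9, the smooth muscle myosin light chain, 8.26 and 8.12 at 0 h against 7.12 and 6.79 at 9 h (-1.23 ± 0.26, adjusted p = 0.0909). Among the EMT regulators SNAI1 was at the floor on both 9 h arrays after 5.31 and 5.30 at 0 h, at least 3.10-fold lower (adjusted p = 0.187), and the related SNAI2 read 7.17 and 7.16 at 0 h against 8.46 and 8.56 at 9 h (1.35 ± 0.24, adjusted p = 0.0605).

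Respiratory chain genes had medians below that of all genes, with UQCR10 as the one call. For complex I 18 of 27 were lower and 1 higher in both experiments, with a median of -0.38 (-0.33 and -0.56 in the experiments, -0.61 to -0.28 with 1 array left out, 10 with an unadjusted p under 0.05). For complexes II to IV 11 of 23 were lower in both, with a median of -0.25 [-0.42 to -0.13], and for ATP synthase 9 of 14 lower and 0 higher, with a median of -0.34 [-0.34 to -0.31] (5 with an unadjusted p under 0.05). NDUFA1, an assembly subunit of complex I, read 10.71 and 10.68 at 0 h against 10.24 and 8.42 at 9 h (-1.36 ± 0.39 [-2.26 to -0.45], adjusted p = 0.178), with most of its change in experiment 2. ATP5MC1, a chain of the rotor ring, read 9.10 and 8.72 at 0 h against 8.50 and 7.68 at 9 h (-0.82 ± 0.28 [-1.20 to -0.43], adjusted p = 0.241). Mitochondrial ribosomal proteins had a median of -0.18 [-0.32 to -0.10] over 38 genes, with 17 lower and 3 higher in both and 0 calls (5 with an unadjusted p under 0.05). MRPL12 was lowest, 7.78 and 8.74 at 0 h against 6.66 and 6.59 at 9 h (-1.63 ± 0.32, adjusted p = 0.0743). Cytosolic ribosomal proteins, the other ribosomal set, had 0.01 [-0.07 to 0.02] over 51 genes, with 15 higher and 12 lower and 0 calls (3 with an unadjusted p under 0.05). RPL27A, which has many processed copies and is uncertain, read 7.41 and 6.16 at 0 h against 8.80 and 7.14 at 9 h (1.19 ± 0.33, adjusted p = 0.166).

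Lipid synthesis had lower medians with 0 calls, where 0.412% of all tested genes rose and 0.0383% fell. Sterol synthesis and uptake had -0.42 [-0.55 to -0.28] over 17 genes, 9 lower and 3 higher in both (4 with an unadjusted p under 0.05), and fatty acid and lipid synthesis -0.57 over 15, 8 lower and 2 higher (-0.62 to -0.21 with 1 array left out, 3 with an unadjusted p under 0.05). DHCR7, the last enzyme of cholesterol synthesis, read 8.36 and 6.78 at 0 h against 6.73 and 5.44 at 9 h (-1.49 ± 0.42, adjusted p = 0.171), and FASN, fatty acid synthase, 8.77 and 8.02 at 0 h against 6.73 and 7.66 at 9 h (-1.20 ± 0.37 [-1.84 to -0.55], adjusted p = 0.202), with changes of -2.05 and -0.36. The median over the 2 probe sets of DHCR7 was -0.91. HMGCS1, an early enzyme of the same sterol pathway, read 6.55 and 6.05 at 0 h against 7.01 and 6.77 at 9 h (0.59), opposite in sign to DHCR7.

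Metal and heat stress genes and the interferon response held 0 calls, beside 0.412% of all tested genes that rose and 0.0383% that fell. Of 21 NRF2 and metal stress genes 12 were lower and 5 higher in both, with a median of -0.38 [-0.61 to -0.22] (12 with an unadjusted p under 0.05). The metallothioneins MT1E, MT1F, MT1G, MT1H, MT1X and MT2A, zinc-binding proteins whose near-identical copies make single values uncertain, were each lower in both experiments, MT1H the most (9.30 and 10.02 at 0 h against 8.86 and 7.95 at 9 h; -1.26 ± 0.43 [-2.20 to -0.29], adjusted p = 0.240). NFE2L2 and its targets GCLM and GCLC had log2 changes of 0.83, 0.73 [0.46 to 0.98] and 0.63. Cytosolic heat shock genes had a median of -0.11 [-0.40 to -0.01] over 27 (8 with an unadjusted p under 0.05), and HSPE1, the mitochondrial co-chaperonin, read 9.89 and 9.61 at 0 h against 9.42 and 7.02 at 9 h (-1.53 ± 0.46 [-2.62 to -0.42], adjusted p = 0.195). Interferon and antigen processing genes had -0.28 [-0.36 to -0.15] over 35, with 17 lower and 7 higher in both (7 with an unadjusted p under 0.05). TAPBP, which loads peptide onto class I molecules, read 8.42 and 8.14 at 0 h against 7.08 and 6.69 at 9 h (-1.40 ± 0.28, adjusted p = 0.0821), with 1 of its 2 probe sets lower, and PSMB9, an immunoproteasome subunit, 8.94 and 8.33 at 0 h against 7.88 and 7.45 at 9 h (-0.98 ± 0.24, adjusted p = 0.129).

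WNT, growth factor and metabolic lists held 0 calls, which for lists of this size is near the shares over all tested genes (0.412% rose and 0.0383% fell). WNT ligands, receptors and antagonists had -0.34 [-0.54 to -0.22] over 21 genes, 10 lower and 4 higher in both (6 with an unadjusted p under 0.05). FZD2, a WNT receptor, read 6.99 and 6.32 at 0 h against 5.42 and 3.67 at 9 h (-2.11 ± 0.50, adjusted p = 0.114), and the ligand WNT5B 6.55 and 6.62 at 0 h against 5.22 and 3.80 at 9 h (-2.07 ± 0.63 [-3.07 to -1.04], adjusted p = 0.194). The EGF receptor family had -0.31 over 9 (-0.47 to 0.17 with 1 array left out, 1 with an unadjusted p under 0.05), and its ligand HBEGF read 7.53 and 8.75 at 0 h against 8.39 and 9.84 at 9 h (0.98 ± 0.21, adjusted p = 0.0938). Angiogenic factors had -0.01 [-0.24 to -0.01] over 20 (7 with an unadjusted p under 0.05). VEGFA read 8.20 and 7.21 at 0 h against 9.25 and 8.89 at 9 h (1.37 ± 0.31 [0.87 to 1.84], adjusted p = 0.104), and VEGFB 6.37 and 6.64 at 0 h against 5.62 and 5.95 at 9 h (-0.72 [-1.24 to -0.19]). The median over the 4 probe sets of VEGFA was 0.57. Hypoxia and glycolysis genes had -0.10 [-0.34 to 0.08] over 28 (7 with an unadjusted p under 0.05), with PFKFB4, at the floor on the experiment 1 array at 0 h, at 3.67 and 3.67 at 0 h against 4.73 and 5.58 at 9 h (1.48 ± 0.42, adjusted p = 0.178) and GPI, an enzyme of glycolysis, at 11.17 and 10.73 at 0 h against 9.66 and 10.23 at 9 h (-1.01 [-1.44 to -0.57]).

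Cell cycle, histone and proteasome lists held 0 calls, again near the shares over all tested genes (0.412% rose and 0.0383% fell). Cyclins, mitotic kinases and spindle genes had -0.12 over 33 genes, 8 higher and 10 lower in both (-0.43 to 0.17 with 1 array left out, 1 with an unadjusted p under 0.05), and DNA replication genes -0.30 [-0.32 to -0.06] over 37, 4 higher and 16 lower (4 with an unadjusted p under 0.05). UBE2C read 9.67 and 10.17 at 0 h against 9.13 and 9.31 at 9 h (-0.70 ± 0.23 [-1.001 to -0.39], adjusted p = 0.235), and RRM2, a subunit of ribonucleotide reductase, 10.04 and 11.36 at 0 h against 9.64 and 10.09 at 9 h (-0.83 ± 0.34 [-1.54 to -0.17], adjusted p = 0.315). Of the 2 probe sets of RRM2, 1 was lower, and the median over them was -0.41. Histones had 0.12 [-0.15 to 0.39] over 9 (-0.42 unscaled, 1 with an unadjusted p under 0.05), and H2AX read 9.80 and 9.58 at 0 h against 8.52 and 8.26 at 9 h (-1.30 ± 0.36, adjusted p = 0.163). Of the 3 probe sets of H2AX, 2 were lower, and the median over them was -0.39. Proteasome subunits had -0.06 [-0.21 to 0.13] over 26 (5 with an unadjusted p under 0.05), with PSMB3 at 10.00 and 9.76 at 0 h against 9.09 and 8.73 at 9 h (-0.97 ± 0.21, adjusted p = 0.0925).

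Of 15 tested genes that have been linked to HOXA5, 0 passed in limma, 2 with an unadjusted p under 0.05. Over all tested genes 0.412% rose and 0.0383% fell, so 0 calls among 15 genes is near that share and says little about them. Higher in both experiments were 5 (33.3%) and lower in both 4 (26.7%), against 28% and 29.5% of all tested genes. The median was 0.23 (-0.38 unscaled, -0.00 to 0.23 with 1 array left out). PTN, the growth factor pleiotrophin, read 7.04 and 7.85 at 0 h against 7.48 and 10.21 at 9 h (1.40 ± 0.38 [0.67 to 2.12], adjusted p = 0.161), but 1 of its 4 probe sets was higher and the median over them was -0.15. MDK, the related midkine, read 6.503 and 5.74 at 0 h against 6.79 and 7.07 at 9 h (0.81 ± 0.38 [0.33 to 1.31], adjusted p = 0.384), and SPRY2, an ERK inhibitor, 7.51 and 7.35 at 0 h against 8.73 and 7.50 at 9 h (0.69 ± 0.31 [0.23 to 1.14], adjusted p = 0.361). TWIST1, an EMT factor, read 5.90 and 5.53 at 0 h against 5.72 and 3.67 at 9 h (-1.02 ± 0.53 [-1.69 to -0.38], adjusted p = 0.437). The receptor ERBB2 read 6.55 and 5.59 at 0 h against 6.04 and 4.52 at 9 h (-0.79 ± 0.48 [-1.26 to -0.31], adjusted p = 0.516), and the surface protein CD24 7.14 and 6.62 at 0 h against 6.23 and 6.07 at 9 h (-0.73 ± 0.39, adjusted p = 0.455). Of the 6 probe sets of CD24, 4 were lower. Both 9 h values of PTN and MDK were higher within their experiment, and those of TWIST1, ERBB2 and CD24 lower.

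For the death and signalling genes of that list, caspase 8 (CASP8) had changes of 0.11 and 0.69, caspase 2 (CASP2) of -0.05 and 0.18 and the nucleolar protein NPM1 of 0.36 and 0.37. RARB, a retinoic acid receptor, had -0.61 and -0.21. KDR, a VEGF receptor, had 0.00 and 0.56 and E-cadherin (CDH1) -0.12 and 0.59, both from levels at or near the floor of 3.67. KDR read 3.67 and 3.67 at 0 h against 3.67 and 4.23 at 9 h, and CDH1 3.93 and 3.67 against 3.81 and 4.26. FOXO1 had 1.11 and -0.18, IGFBP3 0.36 and -0.28 and YY1 0.52 and -0.63, so FOXO1, IGFBP3, YY1, CASP2 and CDH1 did not keep their sign between the experiments. HOX genes and their cofactors had a median of -0.12 [-0.27 to -0.04] over 21 genes, 2 higher and 9 lower in both and 0 calls (3 with an unadjusted p under 0.05). MEIS1, a cofactor, read 5.05 and 5.07 at 0 h against 5.90 and 5.63 at 9 h (0.70), and HOXC5 4.86 and 6.31 at 0 h against 3.67 and 3.81 at 9 h (-1.84 ± 0.47, adjusted p = 0.134).

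**Figure D4:**
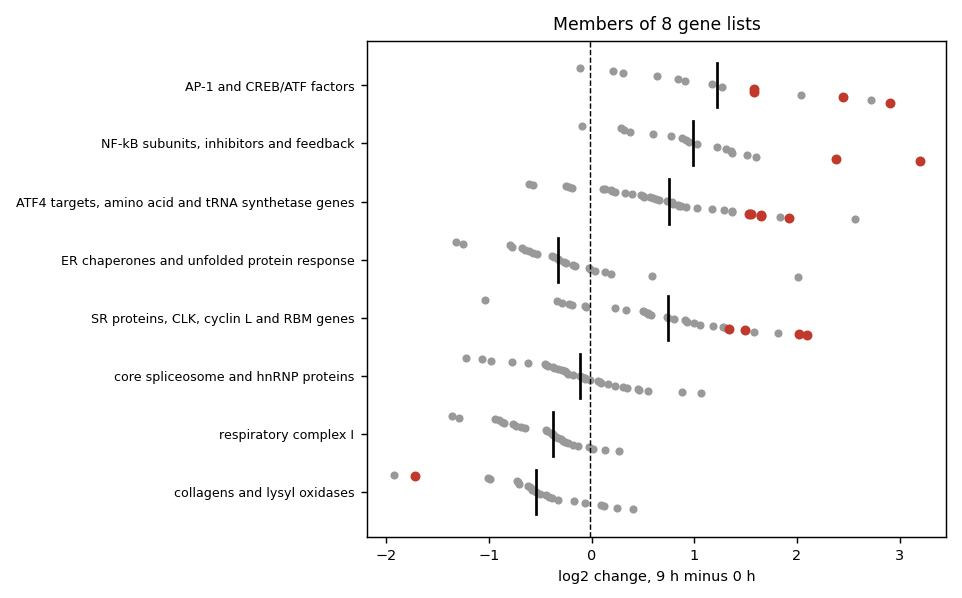
Fitted log2 change from 0 h to 9 h of each tested member of 8 gene lists, 1 point per gene, with red points for genes past the threshold, a short bar at the list median and a dashed line at the median of all tested genes. Of the NF-kB list TNIP1 alone lies left of the dashed line, and in the collagen list LOXL1 is red at -1.72 beside SERPINH1 at -1.93, which did not pass.

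Beyond the 4 that fell, the genes with the lowest values in both experiments were dim. XYLT2, a xylosyltransferase, was at the floor on both 9 h arrays after 5.92 and 5.92 at 0 h, at least 4.77-fold lower (adjusted p = 0.0958). On the same basis YWHAH-AS1 was at least 4.76-fold lower, NME3 4.31-fold, PRPH2 4.16-fold and IL19 4.09-fold. MINDY1, a deubiquitinase, read 6.91 and 6.33 at 0 h against 5.10 and 4.18 at 9 h (-1.98 ± 0.46, adjusted p = 0.109). The other genes of this kind were MC2R, SLC29A3, VSIG4 and ATXN8OS, with log2 changes of -1.82, -2.12 [-2.89 to -1.31], -1.89 and -1.79. None of these passed. YWHAH-AS1 and ATXN8OS are antisense or opposite-strand transcripts, named through the gene identifiers of the probe table.

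Direction of change is also given by gene length, as a description across genes. By RefSeq gene spans the median length of genes higher in both experiments was 39.3 kb and of genes lower in both 23.6 kb, against 30.1 kb for all tested genes. Genes that rose had a median of 17.0 kb. Among 5 equal groups by length, in the shortest (median 4.75 kb) 20.6% were higher and 37.2% lower in both experiments. In the longest (median 166 kb) 32.6% were higher and 25.2% lower. The part of gene length, or of the RNA quality signs given above, in the list medians was not tested.

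**Figure D5:**
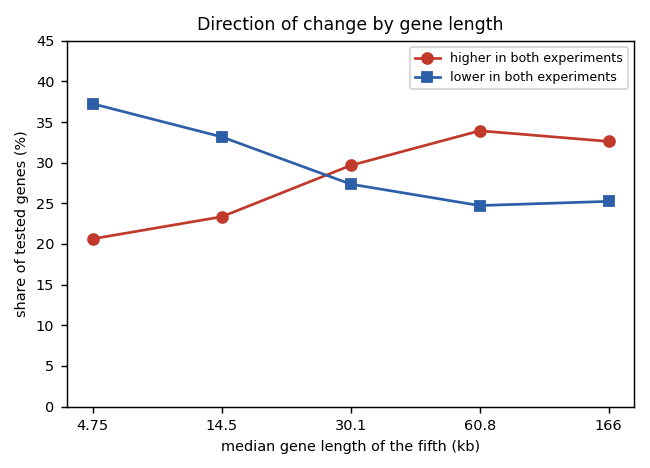
Share of tested genes higher (red circles) and lower (blue squares) in both experiments, in percent, in 5 equal groups of genes by length, with the median length of each group in kb on the horizontal axis. The share lower in both falls from 37.2% to 25.2% and the share higher in both goes from 20.6% to 32.6% between the shortest and the longest group.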

How the data were processed

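The deposited values are 1 linear intensity per probe set and array from Affymetrix chips, with no scaling between arrays; no source used here names the software. Total RNA was extracted with TRIzol and purified on RNeasy columns, per the labels' protocols. From the intensities deposited by the authors, log2 values were computed after quantile normalisation of all 6 arrays and a floor at the 25th percentile (12.7 intensity units, 3.67 on the log2 scale). Affymetrix controls (68 probe sets) were left out, and 18360 that exceeded the floor on 2 or more of the 6 arrays were tested. The probe table gives 1 symbol to 19071 probe sets, several to 1043 and none to 2169; 19059 were named through Entrez numbers. The probe set with the highest mean stood for a gene.

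Changes were fitted with limma 3.58.1 under R 4.3.3 on all 6 arrays, with time and the experiment as a block (2 residual degrees of freedom, 7.51 prior), an intensity trend in eBayes, and Benjamini-Hochberg adjustment over the tested probe sets at a two-sided 0.05. Standard errors (±) come from this fit, which the 6 h arrays entered for the spread. Deviations of arrays of the same experiment correlated at 0.247, 0.336 and 0.391, and the labels call the experiments batches of RNA, which is where the pairing comes from. The lot line of the 6 h array of experiment 2 names experiment 1; its title was followed. The fit was checked on simulated data drawn from the same paired model. That check could not test the pairing or the part of RNA quality.

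Members, gene lists and the choice of the paired fit were set with earlier results of these data known. The rule for naming genes takes the 15 largest rises and falls past the threshold with 1 direction in both experiments (too few falls passed, so 15 were reached by ranking the weaker experiment's change), every tested gene linked to HOXA5, and from each list the called members, at most 5, or else the member with the largest change of 1 direction. Other genes named above, apart from the further called ones, were chosen after their values were seen, also where their paragraph does not say so. Gene spans and promoters are from RefSeq on GRCh38.p14. Alternatives tried were the fit without the block, other blocks, arrays, scalings, floors, filters and trends, and leaving out each array.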

Additional observations from a re-analysis of the deposited data

Results flagged for a closer look

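A total of 131 probe sets (0.714% of those tested) changed at least 2-fold in opposite directions in the 2 experiments, higher in 1 and lower in the other between 0 h and 9 h. The difference between the experiments was not tested, since each holds 1 array per time. In the same direction, 393 probe sets changed that much upward and 226 downward.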

How the results depend on the processing

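The count of probe sets called by limma depended on the processing, at 66 in all, 60 higher and 6 lower. It was 0, with 0 higher and 0 lower, without the replicate block (1360 with an unadjusted p under 0.05), with only the 4 arrays at 0 h and 9 h (2263), with the block taken from the lot line (1464), in unscaled values (650), with no filter on low values (2286) and without the trend (2131). Leaving out each array in turn gave 0 to 0 calls in all, higher and lower, with 1506 to 2250 unadjusted. Scaling to a trimmed mean gave 148 (120 higher, 28 lower), a floor at the 50th percentile 205 (147 and 58), log2(value + 16) without a floor 232 (162 and 70), and a filter of at least 4 of 6 arrays above the floor 243 (171 and 72). With a floor at the 10th percentile there were 44 (42 and 2). Probe sets at least 2-fold higher and lower in both experiments numbered 393 and 226, and 120 and 1526 in unscaled values, 657 and 427 with the floor at the 10th percentile, 178 and 76 at the 50th, and 225 and 91 with log2(value + 16). The cause of these differences was not tested. Some genes linked to HOXA5 turned sign. In unscaled values these were CASP2 (-0.50), CASP8 (-0.13), CDH1 (-0.29), FOXO1 (-0.026), IGFBP3 (-0.48) and NPM1 (-0.19). Over all probe sets of the gene they were CASP2 (-0.011) and PTN (-0.15, against 1.40 by its brightest). Leaving out 1 array gave -0.18 to 0.32 for CASP2, -0.051 to 0.52 for CDH1, -0.10 to 1.04 for FOXO1, -0.45 to 0.54 for IGFBP3, -0.23 to 0.79 for KDR and -0.65 to 0.56 for YY1. Over the named genes and all alternatives, 1109 values kept direction and side of the threshold, 398 lost the call with the same direction, 24 gained one and 17 turned. The 1109 include the many named genes that were not called and so had no call to lose. These pooled counts therefore do not measure how stable the calls were. Each alternative above with 0 calls took away the call of every called gene. Dim genes near the floor limit the rest: the experiments' changes correlated at 0.136 in the dimmest of 5 equal groups of genes.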

Other observations

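The level at 6 h was set beside the calls as a description, since the 6 h arrays entered the fit. For all 43 genes that rose, the mean at 6 h lay between the means at 0 h and 9 h, as it did for the 4 that fell. Over all tested genes this was so for 39.6%. Of the 66 called probe sets, 3 carry several symbols in the probe table and were not named, and 16 belong to genes represented by a brighter probe set. IFRD1, a transcriptional co-regulator, was called by such a probe set.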
